A study of Mus musculus with 20 samples.

Results

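Interferon-stimulated genes, the genes that cells switch on when interferon signals infection, were followed through 6 groups of cultured mouse cells on 20 arrays. The list held 39 genes, chosen by symbol from the array's annotation, and 37 of them were measured among 18193 genes in all. For a gene with several probe sets, the one that was brightest on average across the arrays was read. Isg15 was left out because its only probe set was shared with another gene, and Ifi44 had no probe set. The levels below are log2 intensities, and a difference of 1 on this scale is 2-fold.

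The GSC group (3 arrays) held germline stem cells, the dividing precursors of sperm. They came from testes of OG2 mice, whose strain is B6;CBA-Tg[Pou5f1-EGFP]2Mnn/J and whose Oct4 promoter drives green fluorescent protein. The cells were kept on mitomycin-treated embryonic fibroblasts as feeder cells, in a medium with GDNF, EGF, basic FGF and leukemia inhibitory factor (LIF). Germline pluripotent stem cells (gPS, 5 arrays) carry the same transgene: wells of about 1000 GSC on fibroblasts gave bright round colonies within 3 to 4 weeks, and these were expanded on fibroblasts in embryonic stem cell medium. Embryonic stem cells (ESC, 3 arrays) were of the RW4 line, grown on fibroblast feeders with LIF. ESC-like cells (ESC_like, 3 arrays) had been derived in another laboratory from testes of mice at postnatal days 0 to 2 and were grown in the same way; the labels name no strain for them. Their arrays carry later sample numbers than the others, and whether they were processed together with them is not given in the sources used here. Neural stem cells (NSC, 3 arrays) were made from Olig2-GFP embryonic stem cells, with no feeder named, and mouse embryonic fibroblasts (MEF, 3 arrays) came from C3H embryos at E12.5. The labels do not say how many gPS lines were used or whether the arrays of a group came from separate cultures, so a p-value here reflects only how much these arrays vary, which may be technical variation. Strain, medium and cell type cannot be told apart where groups differ in all of them; GSC and gPS share the strain but not the medium.

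Type I interferon binds a receptor of the chains Ifnar1 and Ifnar2, and receptor-bound kinases then activate a complex of STAT proteins and Irf9 that enters the nucleus. That complex and the interferon regulatory factors bind repeats of GAAA in promoters and switch on genes that sense viral RNA, degrade it, block viral entry or prepare antigens for display. Pluripotent cells are known to respond weakly to interferon and to keep some of these genes on without it, among them the Ifitm genes, which block viruses as they enter the cell.

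Values lay between 2.04 and 14.71, with a median of 4.95 to 5.04 on each array. Arrays of 1 group correlated with each other at r of 0.978 to 0.997 across all probe sets, and no pair held identical values. The highest r between arrays of different groups was also 0.978. The labels held against these markers: Nanog averaged 3.96 in GSC and 11.66 in gPS, the germ cell gene Dazl 12.21 in GSC and 5.01 in gPS, Olig2 11.59 in NSC and the collagen gene Col1a2 13.17 in MEF. Nanog averaged 11.34 in ESC and 11.93 in ESC-like cells. Other markers were less clear. Zfp42 averaged 9.38 in gPS against 12.27 in ESC, and Dazl 7.60 in ESC-like cells against 5.12 in ESC. The germ cell gene Ddx4 averaged 7.17 in MEF, and Sox2, listed for neural cells, 12.12 in ESC against 11.44 in NSC. Replicate 1 of GSC stood apart in a measure of RNA quality, how far the 3' control probes of Actb exceeded its 5' ones: 1.25, against 0.12 to 0.57 on the other 19 arrays. With it left out, 19 members were called in GSC minus ESC in place of 18, and 17 in gPS minus GSC in place of 15. Of all genes, 22.8% and 19.6% were called without it. For 12 members, such as Irf7, Mx1, Oas3, Ifit1, Ifit3 and Usp18, the mean was below 6 in every group, where the median of all values was 4.98. The values used here carry no detection calls, so a level below that median may be no more than background, and a difference against it may understate the true one.

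Promoter sequences are shown because the GAAA repeat is what interferon regulatory factors are known to bind. Gbp2, Gbp3, Ifih1, Ddx58, Ifitm2 and Ifitm3 were called between gPS and GSC and held a match, Oasl2 was called and held none, and Ifit1 was not called and held a match. The motif searched was GAAA, any 2 bases (NN) and GAAA again, on both strands, in RefSeq windows of 300 bases (250 before to 50 after the start of transcription, build GRCm38.p6). It occurred in 3.44% of 32851 promoters, in 3.99% of the 27025 genes these belong to, and in 16 of the 32 member genes with a promoter entry. Sequences run 5' to 3' on the gene's own strand, and capitals mark the motif, which reads TTTC, NN, TTTC where it lies on the opposite strand. The first 3 runs are the 250 bases before the start of Gbp2 (chr3:142620413-142620662, + strand), Gbp3 (chr3:142559794-142560043, + strand) and Oasl2 (chr5:114896684-114896933, + strand).
Gbp2: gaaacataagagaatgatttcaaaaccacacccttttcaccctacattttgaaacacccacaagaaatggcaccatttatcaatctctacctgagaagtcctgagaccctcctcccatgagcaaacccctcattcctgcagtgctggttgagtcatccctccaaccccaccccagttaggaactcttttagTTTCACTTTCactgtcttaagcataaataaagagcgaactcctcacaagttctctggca
Gbp3: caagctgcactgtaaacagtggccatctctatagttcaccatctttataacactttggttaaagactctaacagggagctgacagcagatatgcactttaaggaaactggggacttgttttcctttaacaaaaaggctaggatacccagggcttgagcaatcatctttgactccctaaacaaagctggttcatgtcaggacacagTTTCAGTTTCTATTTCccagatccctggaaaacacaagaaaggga
Oasl2: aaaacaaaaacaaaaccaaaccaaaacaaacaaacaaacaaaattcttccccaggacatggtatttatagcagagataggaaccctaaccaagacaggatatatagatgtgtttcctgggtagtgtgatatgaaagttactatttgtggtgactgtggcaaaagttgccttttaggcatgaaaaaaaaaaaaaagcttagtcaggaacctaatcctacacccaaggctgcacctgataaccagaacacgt
Gbp2 held the motif with its first base 59 bases before the start, and Gbp3 held 2 overlapping matches beginning 45 and 39 bases before the start shown. Another promoter entry of Gbp3 (chr3:142560106-142560405, + strand) held no match. Oasl2 had no match in its window, which says only that these letters are not there. The next runs are 30 bases around a match in Ifih1 (chr2:62646206-62646235, - strand), Ddx58 (chr4:40239804-40239833, - strand), Ifitm2 (chr7:140955988-140956017, - strand), Ifitm3 (chr7:141010706-141010735, - strand) and Ifit1 (chr19:34640775-34640804, + strand).
Ifih1: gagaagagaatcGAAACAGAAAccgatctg
Ddx58: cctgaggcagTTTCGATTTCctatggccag
Ifitm2: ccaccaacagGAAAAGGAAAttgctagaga
Ifitm3: aaacttctgaGAAACCGAAActgccgcaga
Ifit1: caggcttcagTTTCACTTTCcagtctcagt
Matches lay in genes that were higher in GSC, in genes that were higher in gPS and in genes that were low throughout. Of the members called lower in gPS than in GSC, 3 of the 7 with a promoter entry held the motif (Gbp2, Gbp3 and Ifih1). Of those called higher, 3 of 4 did (Ddx58, Ifitm2 and Ifitm3). A longer form with a C after the second GAAA, on both strands, overlaps the first motif and occurred in 0.819% of promoters, 0.944% of genes and 12 of the 32 member genes. TTCNNNGAA on both strands, the core of the sites that STAT dimers bind, occurred in 8.30% of promoters, 9.55% of genes and 12 of the 32.

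Across the 6 groups the members did not move as 1 block. Of the 37, 15 had their highest group mean in GSC, 11 in MEF, 6 in ESC, 3 in NSC, 1 in gPS (Irf5) and 1 in ESC_like (Oas1a). Over all genes, 27.2% had their highest mean in GSC, 16.5% in MEF, 17.9% in ESC, 16.1% in NSC, 15.7% in gPS and 6.60% in ESC_like. All arrays of the top group lay above all other arrays for 11 members in GSC, 6 in MEF, 3 in ESC, 2 in NSC and 1 in ESC_like, and for no member in gPS. Of all genes, this held for 13.3% in GSC, 9.50% in MEF, 3.42% in ESC, 8.93% in NSC, 1.74% in ESC_like and 1.07% in gPS. The lowest mean fell in NSC for 15 members and in ESC for 9. The share of all genes with their lowest mean in each group was not counted, so whether these counts are particular to the members cannot be told. The median member level was 6.44 in GSC, 5.86 in MEF, 5.67 in ESC, 5.65 in ESC_like, 5.22 in gPS and 5.17 in NSC. By limma's moderated F test over the 6 groups, 34 of 37 members had an adjusted p under 0.05, as did 75.3% of all genes, so that share is not particular to the members. The 3 without were Irf7, Oas3 and Mx1, whose group means spanned 0.46, 0.38 and 0.18.

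**Figure D1:**
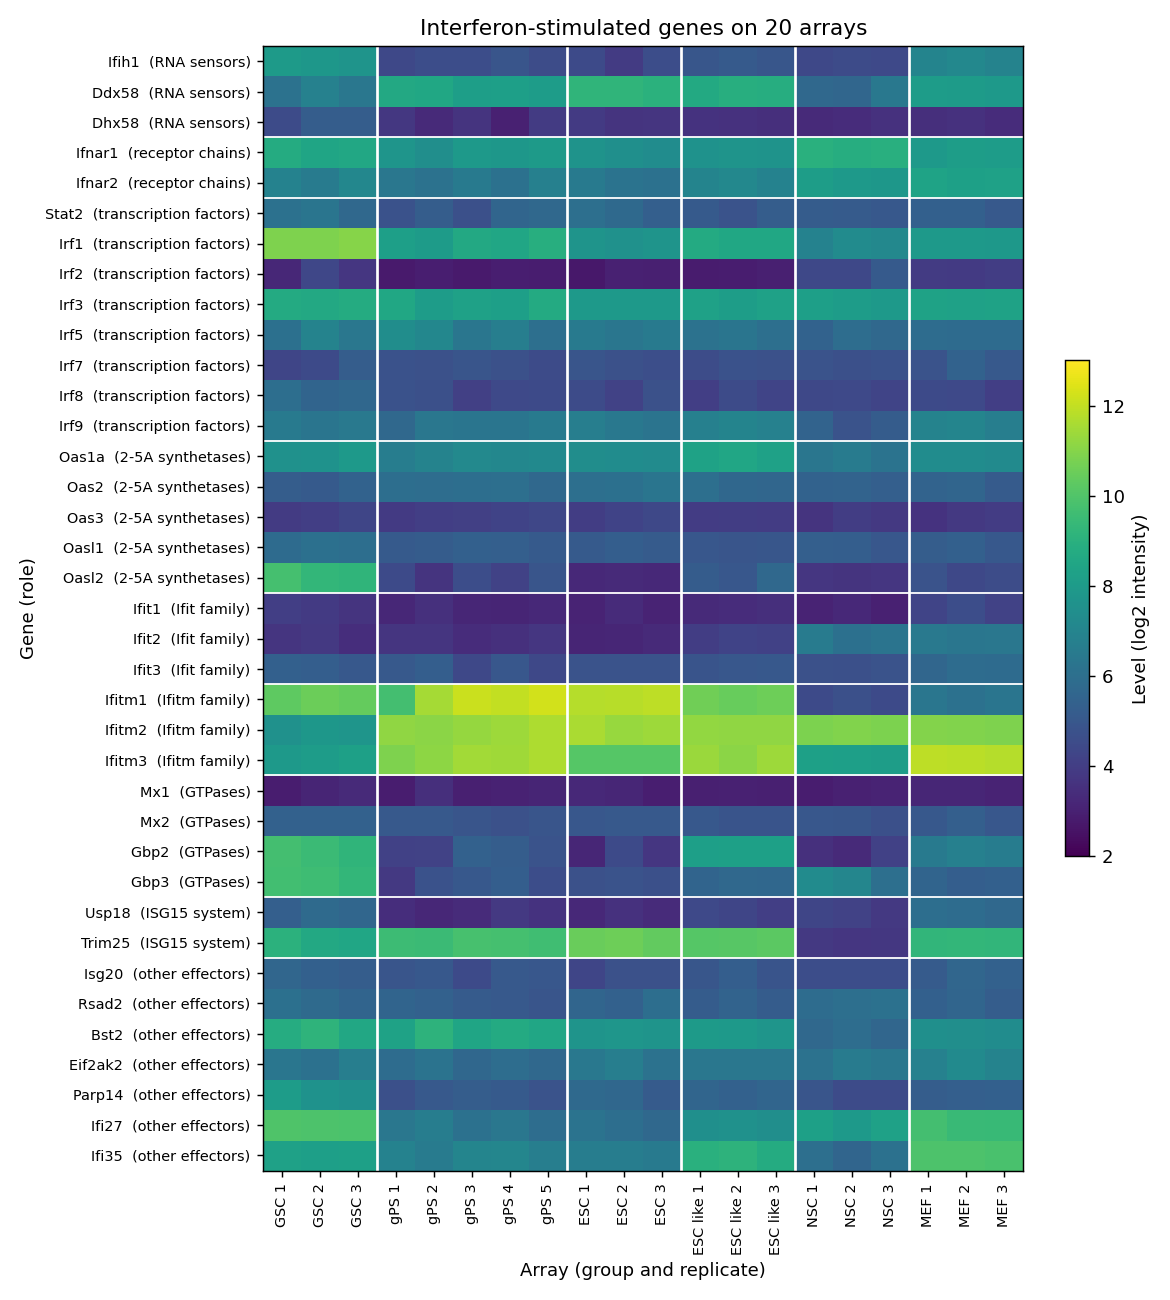
Levels of the 37 measured members on the 20 arrays (columns, by group; rows ordered by role), coloured by log2 intensity from dark (low) to bright (high). Along their own rows, Oasl2, Gbp2, Gbp3, Irf1 and Parp14 were brightest on the GSC arrays, and Ifitm2 was darkest there.

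A member was called between groups when it differed by at least 2-fold with an adjusted p (Benjamini-Hochberg, across the 18193 genes) below 0.05, in 1 limma model of all arrays. The 8 comparisons share groups of arrays, so they are not independent of each other. In bulk RNA, fewer cells that express a gene and less RNA per cell cannot be told apart. The number of arrays limits the precision.

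GSC carried a high level of one set of members and a low level of another when set against ESC. 13 members were higher in GSC and 5 were lower, 48.6% of the 37, against 23.3% of all genes (13.1% higher, 10.2% lower). Oasl2 (a relative of the enzymes that make the 2-5A signal for RNA decay) and the guanylate-binding proteins Gbp2 and Gbp3, GTPases that attack membranes around pathogens, had the greatest differences on the log2 scale. The lower members were all 3 Ifitm genes, the RNA sensor gene Ddx58 (RIG-I) and Trim25, the ubiquitin ligase that acts on RIG-I. Trim25 differed by -1.74, and by -1.09, still called, when its probe sets were averaged. Its other probe sets averaged 8.09 and 7.51 in GSC against 9.66 and 7.47 in ESC. The median member difference was 0.60, and the median over all genes -0.00.

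Among the RNA sensors, Ifih1 (MDA5, which binds long double-stranded RNA) read 7.99, 7.84 and 7.67 in GSC and 4.49, 3.92 and 4.58 in ESC. It was higher in GSC by 3.50 ± 0.15 (SE, adjusted p = 7.97e-14). Ddx58, the other signalling sensor, went the opposite way, with 6.14, 6.85 and 6.34 in GSC and 9.19, 9.19 and 9.01 in ESC, a difference of -2.68 ± 0.19 (SE, adjusted p = 2.29e-10). Dhx58 (LGP2, which modulates both sensors) was called higher by 1.28 ± 0.20 (SE) at a low level, 5.01 against 3.73, and this fell to 0.37 without a call when its 3 probe sets were averaged. The GSC and ESC arrays did not overlap for any of these 3.

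Of the receptor chains, Ifnar1 was called higher in GSC than in ESC by 1.12 ± 0.13 (SE), and quantile normalization brought it to 0.97 without a call. Ifnar2 differed by 0.60 (95% interval 0.26 to 0.93), under the 2-fold threshold. Of the 8 transcription factors, only Irf1 and Irf8 were called. Irf1, a factor that both interferon types induce, read 10.89, 10.86 and 11.02 in GSC and 7.70, 7.57 and 7.71 in ESC, a difference of 3.26 ± 0.16 (SE, adjusted p = 7.00e-13). Irf8, best known from myeloid cells, was higher by 1.27 ± 0.18 (SE), and its second probe set averaged 6.92 in GSC and 3.65 in ESC. Stat2 and Irf9, partners in the type I complex, differed by 0.32 (95% interval -0.17 to 0.81) and -0.02 (-0.40 to 0.36).

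Among the effectors, Oasl2 read 9.76, 9.27 and 9.20 in GSC and 3.26, 3.30 and 3.28 in ESC, a difference of 6.13 ± 0.24 (SE, adjusted p = 1.13e-14). Gbp2 read 9.69, 9.51 and 9.18 in GSC against 3.19, 4.48 and 3.74 in ESC, a difference of 5.66 ± 0.31 (SE, adjusted p = 3.69e-12), and a second Gbp2 probe set averaged 9.47 and 3.22. For both genes the ESC means, 3.28 and 3.80, were below the median of all values. The set read for Gbp2 can also bind related genes. The other 4 genes of the Oasl2 family measured were not called: Oas1a differed by 0.34, Oas2 by -0.83, Oas3 by -0.10 and Oasl1 by 0.79. Gbp3 was higher by 4.77 ± 0.29, Ifi27 (a small mitochondrial protein) by 3.96 ± 0.16, Parp14 (an ADP-ribosyltransferase) by 2.20 ± 0.18, Usp18 (the protease that removes ISG15 and damps the receptor) by 2.19 ± 0.17 and Ifi35 by 1.62 ± 0.14 (all SE). The other Parp14 probe set averaged 3.65 in GSC and 3.51 in ESC, and with both averaged the difference was 1.17, still called. Bst2 (tetherin, which holds budding virus at the cell surface) was called at 1.13 ± 0.16 (SE), with 0.99 and no call when GSC replicate 2 was left out. None of the 3 Ifit genes, whose proteins bind viral RNA, was called: the differences were 0.68, 0.44 and 0.42 for Ifit1, Ifit2 and Ifit3. Mx1 and Mx2, antiviral dynamin-like GTPases, averaged 3.12 and 5.41 in GSC and differed by -0.02 and 0.36, not called.

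**Figure D2:**
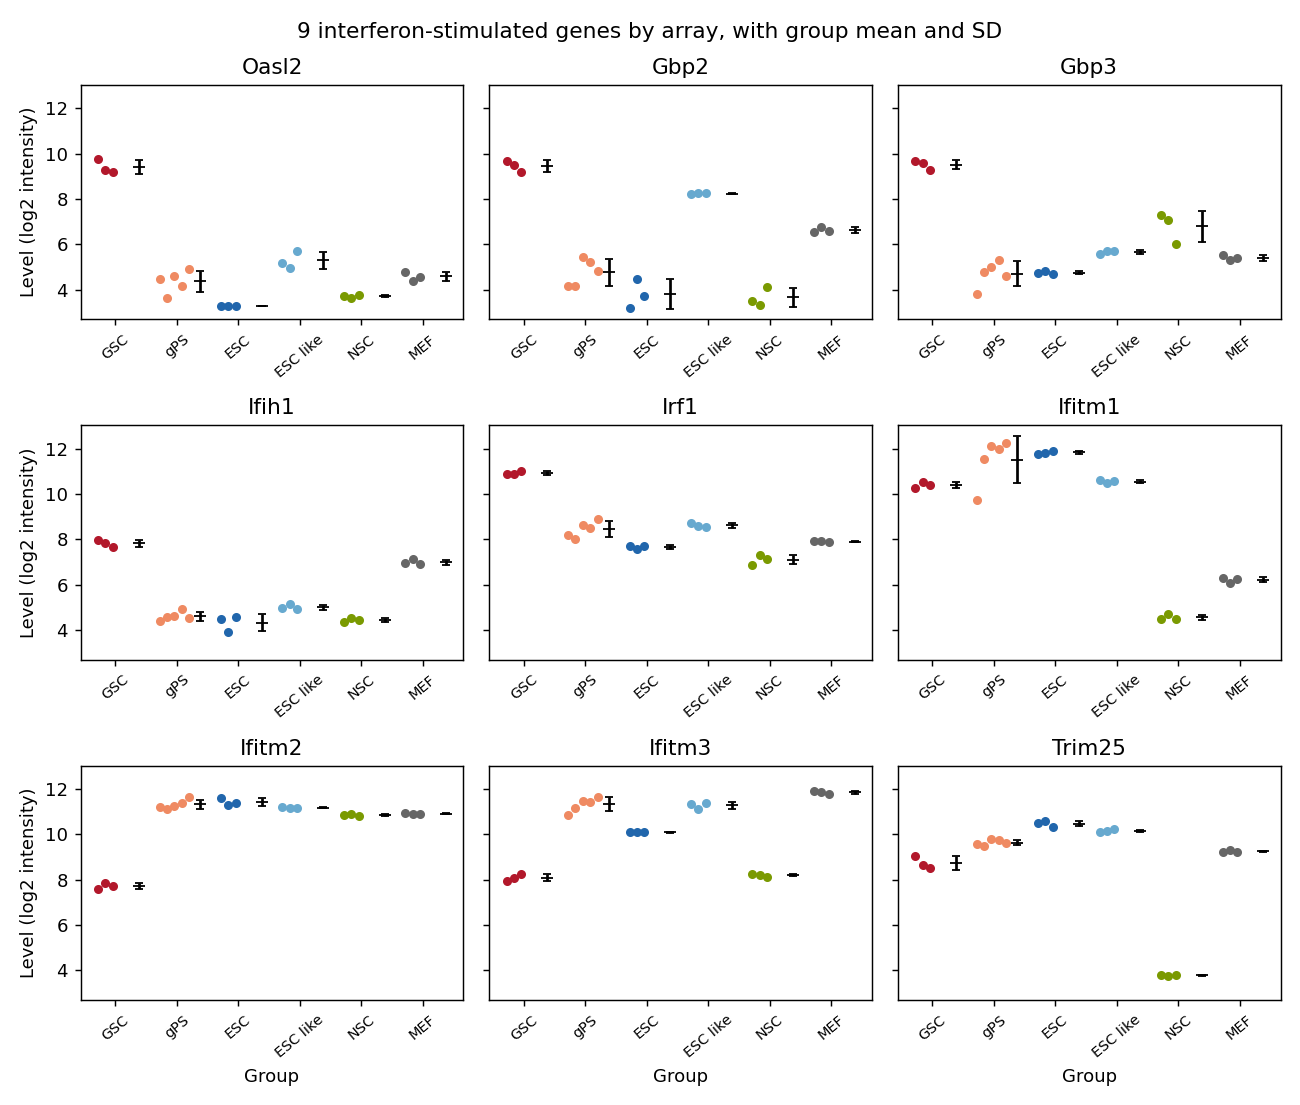
Log2 intensity of 9 members on every array (points, in replicate order within a group), with the group mean and SD beside them. The GSC arrays lie apart at the top for Oasl2, Gbp2, Gbp3, Ifih1 and Irf1 and at the bottom for Ifitm2, and gPS replicate 1 lies below the other gPS arrays for Ifitm1.

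In gPS cells, which were grown out of GSC, most members that stood high in GSC were low and the Ifitm genes were high. Between gPS and GSC, 11 members were lower and 4 higher, 40.5% of the 37, against 20.0% of all genes (10.9% lower, 9.10% higher). Oasl2, Gbp3, Gbp2, Ifi27, Ifih1, Parp14, Irf1 and Usp18 were each more than 4-fold lower in gPS on the probe set read. With its probe sets averaged, Parp14 was under that size, at -1.43. Ifitm2 and Ifitm3 were 12.1-fold and 9.39-fold higher. A further 15 members had an adjusted p under 0.05 with a difference under 2-fold, 13 of them lower and 2 higher, against 15.6% lower and 15.2% higher over all genes by that rule, and the median member difference was -0.52 against 0.02 over all genes.

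Both directions occurred among the sensors. Ifih1 read 4.38, 4.58, 4.60, 4.91 and 4.55 in gPS, below all GSC arrays, a difference of -3.23 ± 0.14 (SE, adjusted p = 4.65e-14). Ddx58 read 8.64, 8.54, 8.18, 8.19 and 8.07, above all GSC arrays, a difference of 1.88 ± 0.17 (SE, adjusted p = 9.55e-09). The other Ddx58 probe sets went from 4.33 to 4.37 and from 3.97 to 4.81, and with all 3 averaged the difference was 0.92, not called. Dhx58 was lower by the same rule (-1.48 ± 0.18 SE), and again only on its brightest probe set (-0.43 for the mean of 3).

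Neither receptor chain was called between gPS and GSC on its brightest probe set, with Ifnar1 at -0.81 (95% interval -1.06 to -0.57) and Ifnar2 at -0.49 (-0.79 to -0.19). The other Ifnar1 probe set averaged 6.44 in GSC and 4.93 in gPS. With both averaged, Ifnar1 was called lower in gPS, at -1.16. Irf1 read 8.20, 8.02, 8.64, 8.51 and 8.88 in gPS, which put every array below GSC, and fell by 2.47 ± 0.15 (SE, adjusted p = 9.44e-12). Irf8 was lower by -1.24 ± 0.16 (SE), and the remaining 6 factors were not called; Irf2 and Stat2 came nearest, at -0.89 and -0.82.

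Oasl2 fell to 4.48, 3.65, 4.59, 4.17 and 4.91 in gPS, a difference of -5.05 ± 0.21 (SE, adjusted p = 3.69e-14). Gbp3 read 3.83, 4.78, 5.01, 5.31 and 4.62 in gPS and 9.67, 9.59 and 9.30 in GSC, a difference of -4.81 ± 0.26 (SE). Gbp2 read 4.14, 4.17, 5.42, 5.24 and 4.83, a difference of -4.70 ± 0.28 (SE). All gPS arrays lay below all GSC arrays for these 3 genes, and the gPS means (4.36, 4.71 and 4.76) were below the median of all values. Ifi27 was lower by -3.65 ± 0.14, Parp14 by -2.74 ± 0.16 and Usp18 by -2.09 ± 0.15 (all SE). The other Parp14 probe set averaged 3.65 in GSC and 3.52 in gPS, and with both averaged the difference was -1.43, still called. Ifi35 was lower by -1.39 ± 0.13 (SE), and by -0.98 without a call when its 3 probe sets were averaged. The Ifit, Mx and Oas genes other than Oasl2 were not called; among them Oasl1 (-0.75), Oas1a (-0.68), Ifit1 (-0.60) and Mx2 (-0.47) were lower at an adjusted p under 0.05, and Oas2 was higher (0.65).

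The Ifitm genes went the other way. Ifitm2 read 7.58, 7.84 and 7.74 in GSC and 11.19, 11.10, 11.26, 11.39 and 11.64 in gPS, a difference of 3.60 ± 0.11 (SE, adjusted p = 3.04e-16). Ifitm3 read 7.96, 8.06 and 8.26 in GSC and 10.87, 11.15, 11.49, 11.45 and 11.66 in gPS, a difference of 3.23 ± 0.14 (SE, adjusted p = 4.29e-14). Ifitm1 was high already in GSC, at 10.25, 10.51 and 10.38, and was called higher in gPS by 1.14 ± 0.35 (SE, adjusted p = 0.0100). Its groups overlapped, since gPS replicate 1 read 9.72 and the other 4 read 11.53 to 12.23. That call was lost without gPS replicate 3 (0.99), without gPS replicate 5 (0.96), and when only the GSC and gPS arrays were fitted.

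**Figure D3:**
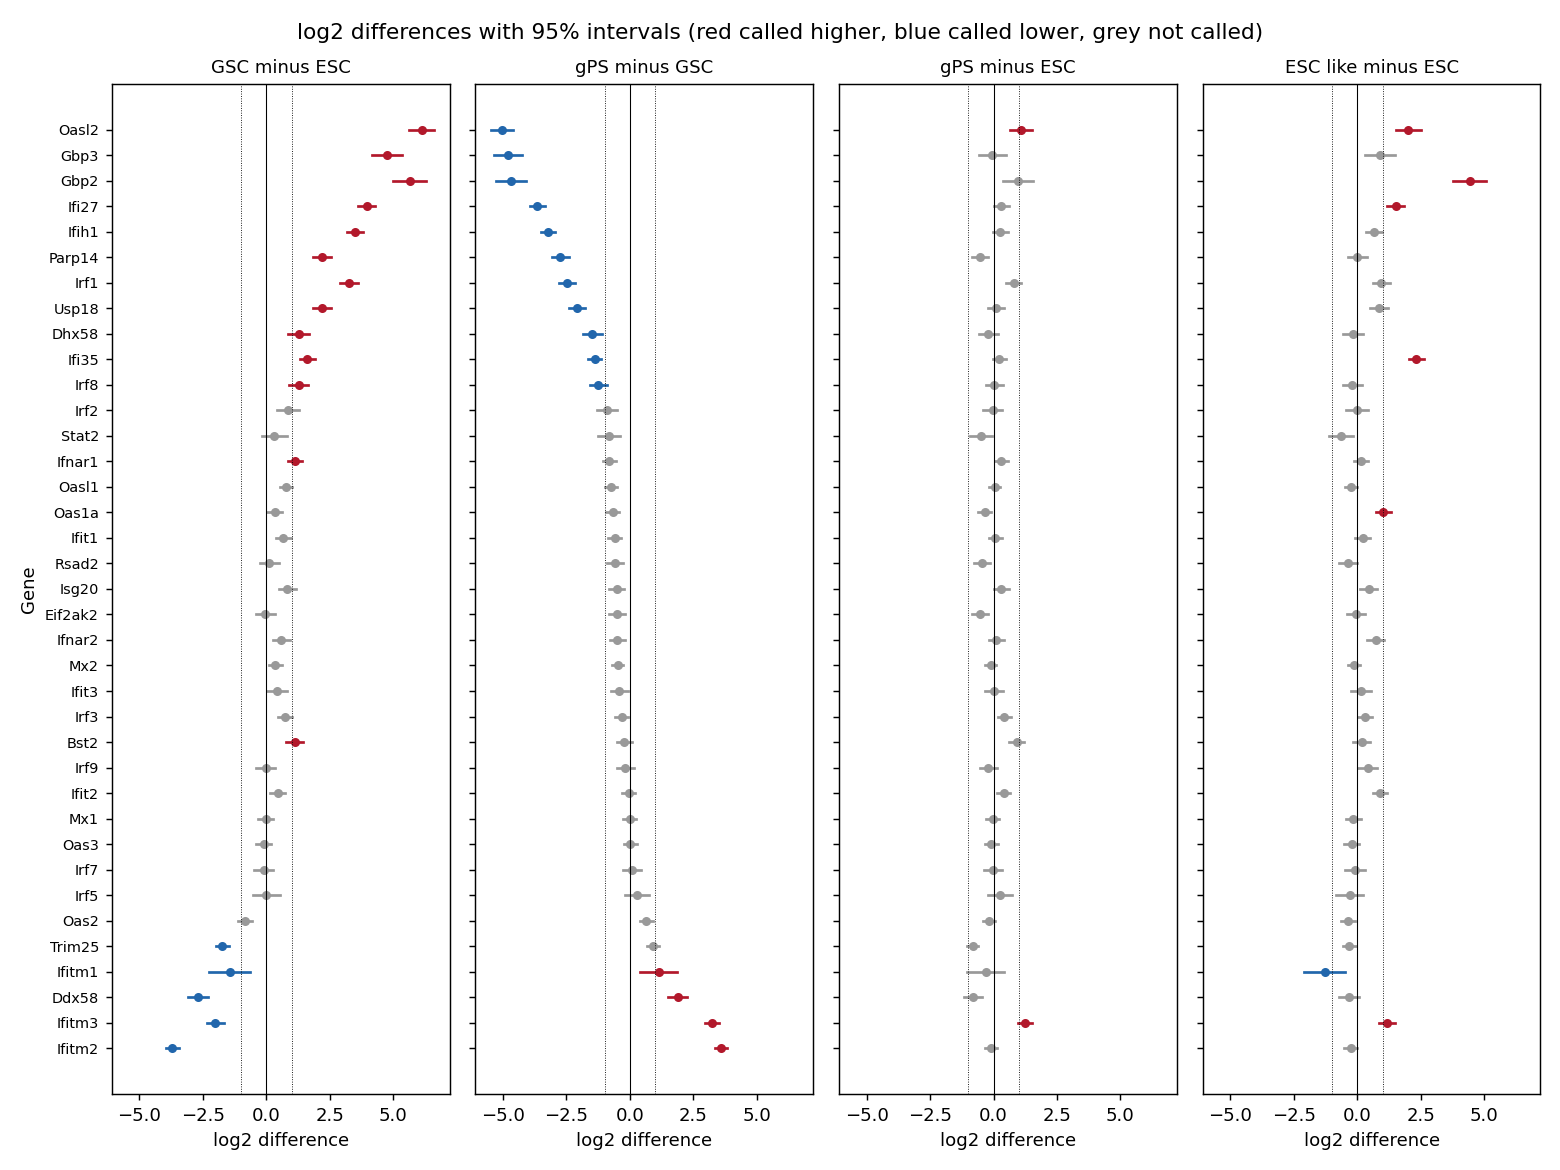
Log2 differences of the 37 members with their 95% intervals in 4 comparisons, ordered by gPS minus GSC; dotted lines mark 2-fold. The points for Oasl2, Gbp3 and Gbp2 lie beyond 4 log2 units in both GSC minus ESC and gPS minus GSC, which share the GSC arrays, while gPS minus ESC gave 1.08, -0.04 and 0.96 for them.

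Set against ESC, gPS cells differed in few members. 2 were called higher and none lower, 5.41% of the 37, against 4.49% of all genes (2.36% higher, 2.13% lower), a share near that background. The 2 were Ifitm3, at 10.08, 10.11 and 10.09 in ESC and higher in gPS by 1.23 ± 0.14 (SE, adjusted p = 1.11e-06), and Oasl2, higher by 1.08 ± 0.21 (SE, adjusted p = 0.000656). For both, all gPS arrays lay above all ESC arrays. By limma at an unadjusted p under 0.05, 10 members were higher and 7 lower, against 19.4% and 15.8% of all genes. Without gPS replicate 5 the difference of Oasl2 was 0.94 and not called, which left 1 member called.

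A further 11 members differed between gPS and ESC at an adjusted p under 0.05 by less than 2-fold, 5 higher and 6 lower, against 11.3% and 9.27% of all genes. Irf1 was higher by 0.79 (95% interval 0.48 to 1.09), Bst2 by 0.91 (0.61 to 1.21) and Gbp2 by 0.96 (0.37 to 1.55), the last with overlapping groups. Trim25 was lower by -0.83 (-1.06 to -0.60) and Ddx58 by -0.81 (-1.17 to -0.44). For Ifitm1 and Ifitm2 the differences were -0.31 (-1.04 to 0.42) and -0.11 (-0.34 to 0.12), and for Gbp3 -0.04 (-0.58 to 0.50). The interval for Ifitm1 includes a level 2-fold lower in gPS.

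ESC-like cells, the other testis-derived pluripotent group, had several interferon-stimulated genes above both ESC and gPS. Against ESC, 6 members were higher and 1 lower, 18.9% of the 37, against 7.21% of all genes (5.11% higher, 2.10% lower). Gbp2 read 8.21, 8.25 and 8.26 in ESC-like cells, above ESC by 4.44 ± 0.31 (SE, adjusted p = 1.04e-09). Gbp3, also on chromosome 3, was not called and differed by 0.90 (95% interval 0.30 to 1.51). Ifi35 read 8.98, 9.10 and 8.78 and was higher by 2.34 ± 0.14, Oasl2 by 2.01 ± 0.24, Ifi27 by 1.53 ± 0.16 and Ifitm3 by 1.18 ± 0.15 (all SE). Oas1a, a 2-5A synthetase, had its highest mean of the 6 groups there, 8.38 ± 0.12 (SD, n = 3). It was called against ESC at 1.03 ± 0.14 (SE), and at 0.95 it was not called without ESC-like replicate 2. Ifitm1 was lower by -1.29 ± 0.39 (SE, adjusted p = 0.0179), a call that was lost without ESC replicate 3 (-1.26) or ESC-like replicate 2 (-1.25).

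Compared directly, 4 members were lower in gPS than in ESC-like cells and none higher, 10.8% of the 37, against 4.85% of all genes (3.74% lower, 1.11% higher). These were Gbp2 (-3.48 ± 0.28, adjusted p = 1.82e-08), Ifi35 (-2.10 ± 0.13, adjusted p = 2.88e-10), Oas1a (-1.37 ± 0.12, adjusted p = 8.86e-08) and Ifi27 (-1.22 ± 0.14, adjusted p = 2.15e-06; all SE). All gPS arrays lay below all ESC-like arrays for each of them. At an unadjusted p under 0.05, 4 members were higher in gPS and 15 lower by limma, against 22.6% and 17.8% of all genes. Another 2 higher and 11 lower members passed an adjusted p of 0.05 under 2-fold, against 13.7% and 10.8% of all genes. Among these, Gbp3 (-0.94), Oasl2 (-0.93) and Usp18 (-0.76) were lower in gPS and Bst2 (0.74) and Ifitm1 (0.98) higher.

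**Figure D4:**
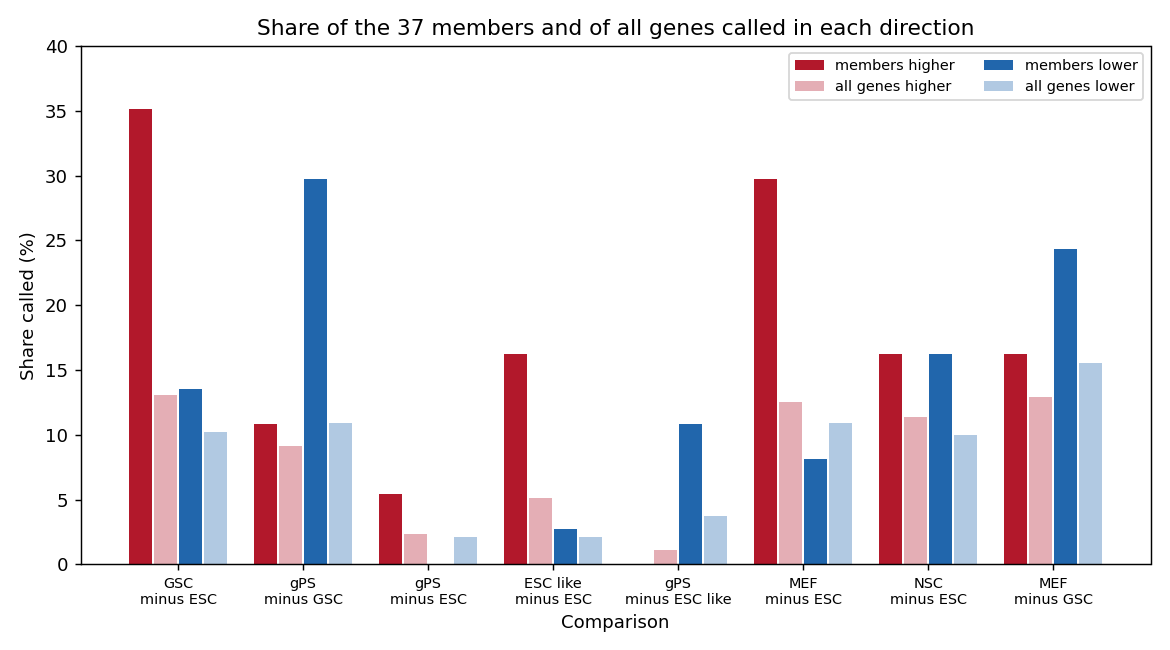
Share of the 37 members (dark bars) and of all 18193 genes (light bars) called higher (red) or lower (blue) in each of the 8 comparisons, in percent. In gPS minus GSC the bar of lower members (11 of 37) stands above the 10.9% of all genes, and in gPS minus ESC 2 members were higher and 0 lower.

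Fibroblasts differed from ESC in part as GSC did. Against ESC, 11 members were higher in MEF and 3 lower, 37.8% of the 37, against 23.4% of all genes. Ifi27 (3.57 ± 0.16), Ifi35 (3.29 ± 0.14), Ifit2 (3.17 ± 0.14), Gbp2 (2.84 ± 0.31) and Ifih1 (2.66 ± 0.15; all SE) led the higher members, and Ifitm1 the lower ones (-5.61 ± 0.39 SE). The remaining lower members, Ddx58 (-1.11) and Trim25 (-1.22), were not called with probe sets averaged (-0.71 and -0.98). All the lower members were also called lower in GSC than in ESC. Ifih1, Oasl2, Gbp2, Usp18, Ifi27 and Ifi35 were called higher in both, while Ifitm3 was higher in MEF and lower in GSC. Ifit2 read 6.45, 6.31 and 6.38 in MEF and 3.15 to 3.32 in ESC. Irf2, called at 1.03 ± 0.21 (SE), was not called without ESC replicate 1 (0.93). Ifit1 was called as well (1.17 ± 0.14 SE), while Ifit3 at 0.97 was just under the threshold.

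Because fibroblasts were the feeder cells, MEF and GSC were also compared directly. 6 members were higher in MEF and 9 lower, 40.5% of the 37, against 28.4% of all genes. Oasl2 (-4.82 ± 0.24), Gbp3 (-4.11 ± 0.29), Irf1 (-3.03 ± 0.16), Gbp2 (-2.82 ± 0.31) and Parp14 (-2.41 ± 0.18; all SE) were lower in MEF than in GSC, as was Ifitm1 (-4.17 ± 0.39 SE). With its probe sets averaged, Parp14 differed by -1.32, still called. Ifitm3 (3.76 ± 0.15), Ifitm2 (3.19 ± 0.12), Ifit2 (2.72 ± 0.14) and Ifi35 (1.67 ± 0.14; all SE) were higher in MEF.

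Fibroblast marker genes read at different levels in the groups. The 12 markers stood at a median of 9.66% of their MEF level in GSC (8.36% to 10.4% by array, single markers 1.61% to 33.8%), 6.02% in gPS (5.24% to 9.58%), 1.32% in ESC, 19.1% in ESC-like cells (17.5% to 20.8%) and 5.31% in NSC (single markers 0.409% to 30.9%), for which no feeder is named. Of the 12, 10 were called higher in GSC than in ESC, 9 higher in gPS than in ESC, 10 higher in ESC-like cells than in ESC and 7 higher in NSC than in ESC; between gPS and GSC 2 were higher and 2 lower, and 9 were lower in gPS than in ESC-like cells. Of all genes, 13.1%, 2.36%, 5.11% and 11.4% were higher in these comparisons with ESC, in that order. Between gPS and GSC 9.10% were higher and 10.9% lower, and 3.74% were lower in gPS than in ESC-like cells. On the same linear scale, Irf1 in GSC was at 815% of its MEF level and Gbp2 at 705%. Oasl2, Gbp3 and Parp14, also above their MEF level in GSC, read low in MEF (4.58, 5.41 and 5.32), so no share is given for them. In ESC-like cells Gbp2 was at 302% of MEF, but Ifi35 was at 51.6%, Ifi27 at 24.3% and Ifitm3 at 67.4%, and single fibroblast markers there ranged from 5.30% to 42.9%. In gPS Ifitm3 was at 69.5% and in ESC at 29.6%. In all, 21 of 37 members were above their MEF level in GSC, 13 in gPS, 14 in ESC, 15 in ESC-like cells and 7 in NSC. The share of all genes above their MEF level was not counted, so whether these counts are particular to the members cannot be told. They also include members that read low in both groups, such as Oas3 (4.09 in GSC and 3.82 in MEF). How far feeder RNA enters the members' values was not tested.

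**Figure D5:**
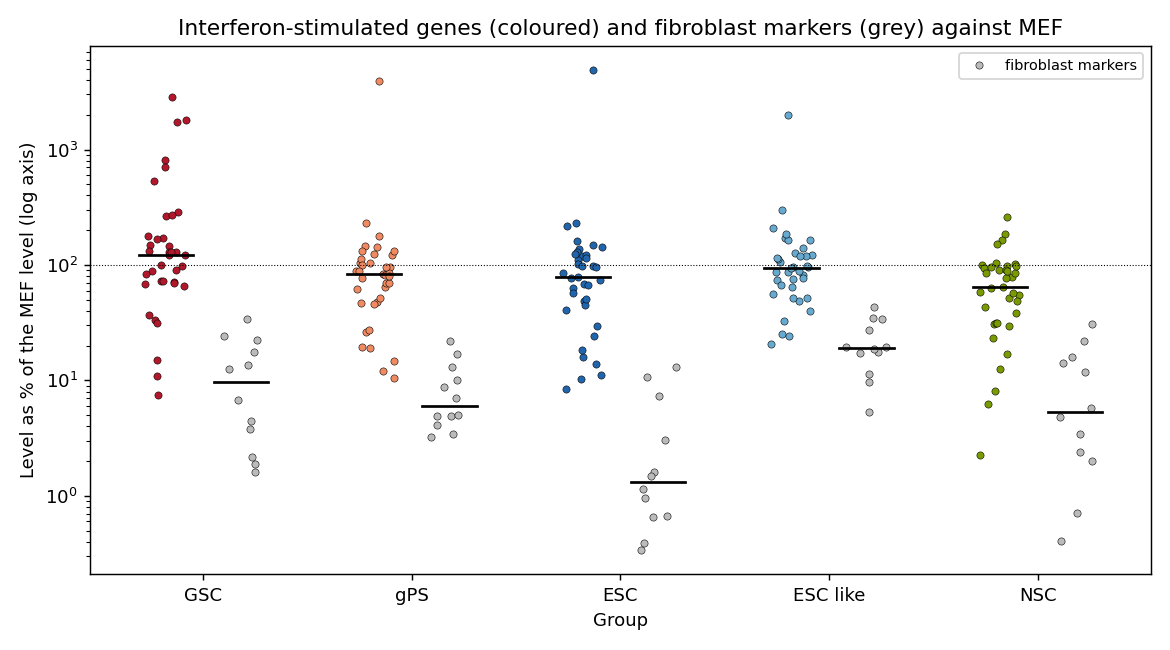
Level of each of the 37 members (coloured) and of 12 fibroblast markers (grey) as a percent of the MEF mean, on a log axis, with the median of each set as a bar. In GSC Irf1 and Gbp2 stand at 815% and 705% while the fibroblast markers have a median of 9.66%; points of members that read low in MEF, such as Oasl2 (4.58), rest on a level below the median of all values.

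Macrophage markers were also followed, since testis cultures can hold macrophages and these express interferon-stimulated genes. The mean of the 10 markers was 6.01 to 6.10 on the GSC arrays, 5.03 to 5.91 in gPS, 5.17 to 5.38 in ESC, 6.19 to 6.31 in ESC-like cells and 5.79 to 5.90 in MEF. Lyz2 (lysozyme) moved with the groups, at 10.96 in GSC, 6.35 in gPS, 4.80 in ESC, 9.95 in ESC-like cells and 8.33 in MEF. Between GSC and ESC, 3 of the 10 were higher in GSC (Fcgr3, Lyz2, Tyrobp) and 2 lower (Cd68, Laptm5). Between gPS and GSC, 2 were lower in gPS (Lyz2, Tyrobp) and 1 higher (Laptm5), and between gPS and ESC 2 were higher (Fcgr3, Lyz2) and 1 lower (Cd68). In ESC-like cells 4 were higher than in ESC (Cd14, Fcgr3, Lyz2, Tyrobp) and none lower, and 3 were lower in gPS than in ESC-like cells (Cd68, Lyz2, Tyrobp) and none higher. Of all genes, 13.1% were higher and 10.2% lower in GSC than in ESC, and 9.10% higher and 10.9% lower in gPS than in GSC. Against ESC, 2.36% were higher and 2.13% lower in gPS, and 5.11% higher and 2.10% lower in ESC-like cells. In gPS against ESC-like cells, 3.74% of all genes were lower and 1.11% higher. Ptprc (3.84 in GSC, at most 4.22 in any group) and Aif1 (3.50 in GSC, at most 3.57), both of the same list, were below the median of all values throughout. The part of macrophage RNA in the members' values was not tested.

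Neural stem cells had the lowest levels of several members. Against ESC, 6 members were higher and 6 lower, 32.4% of the 37, against 21.4% of all genes. Trim25 read 3.81, 3.76 and 3.79 in NSC and 10.49, 10.57 and 10.34 in ESC, a difference of -6.68 ± 0.12 (SE, adjusted p = 9.42e-20). Its other 2 probe sets averaged 2.80 and 4.51 in NSC against 9.66 and 7.47 in ESC. Ifitm1 was lower by -7.28 ± 0.39, Ddx58 by -3.21 ± 0.19, Bst2 by -1.97 ± 0.16, Ifitm3 by -1.89 ± 0.15 and Irf9 by -1.28 ± 0.18 (all SE). Ifitm2, the third gene of that family, was not called and differed by -0.57 (95% interval -0.83 to -0.31). The higher members included both receptor chains, Ifnar1 (1.44 ± 0.13) and Ifnar2 (1.69 ± 0.16), with Irf2 (1.74 ± 0.21), Ifit2 (3.08 ± 0.14), Ifi27 (2.20 ± 0.16) and Gbp3 (2.04 ± 0.29; all SE). Ifit2 read 6.58, 6.08 and 6.22 in NSC, and its NSC and MEF means differed by less than the larger of their SDs.

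The order of the groups differed from gene to gene; neighbours are called within 1 SD where their means differ by no more than the larger of the 2 SDs. For Ifih1 the means ran from GSC (7.83) through MEF (6.99), ESC-like (5.01), gPS (4.60) and NSC (4.44) to ESC (4.33). There gPS and NSC were within 1 SD, as were NSC and ESC. For Gbp2 they ran from GSC (9.46) through ESC-like (8.24), MEF (6.64), gPS (4.76) and ESC (3.80) to NSC (3.66), with only ESC and NSC within 1 SD. For Ifitm3 they ran from MEF (11.85) through gPS (11.32), ESC-like (11.28), ESC (10.09) and NSC (8.21) to GSC (8.09); gPS and ESC-like were within 1 SD, as were NSC and GSC. For Ifi35 no neighbours were within 1 SD, from MEF (9.91) and ESC-like (8.95) through GSC (8.24), gPS (6.85) and ESC (6.62) to NSC (5.90).

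The members varied among replicates about as much as all genes did, and somewhat more in GSC, NSC and MEF. Their median SD was 0.20 in GSC, 0.23 in gPS, 0.12 in ESC, 0.10 in ESC-like cells, 0.14 in NSC and 0.11 in MEF, against 0.17, 0.23, 0.13, 0.10, 0.12 and 0.09 over all genes. The greatest SDs in gPS were those of Ifitm1 (1.04), Gbp2 (0.59), Gbp3 (0.56), Irf5 (0.55) and Oasl2 (0.48).

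Other genes of the interferon pathway, from lists separate from the members, were read in the same fit. These lists too were chosen with earlier results of these data known, so they are no independent support. Of 13 measured genes that prepare or display antigen on MHC class I, 9 were higher in GSC than in ESC and none lower, and 11 were lower in gPS than in GSC and none higher. Over all genes, 13.1% were higher and 10.2% lower in GSC than in ESC, and 10.9% lower and 9.10% higher in gPS than in GSC. Erap1, the peptidase that trims peptides for MHC class I, averaged 9.15 in GSC and 4.54 in gPS (-4.61 ± 0.14 SE, adjusted p = 3.80e-16). Tapbp (tapasin, which loads peptides) averaged 10.35 and 7.92, the immunoproteasome subunit Psmb9 7.82 and 5.54, and Nlrc5, the transactivator of these genes, 5.67 and 3.52. Tap1, a chain of the peptide transporter, averaged 5.80 and 5.79 and was not called. In gPS minus ESC only Tapbp was called, higher by 1.12 ± 0.25 (SE), and in ESC-like minus ESC 5 were called higher, among them Psmb8 (1.59 ± 0.16) and Erap1 (1.34 ± 0.16; both SE). Of all genes, 2.36% were higher in gPS than in ESC and 5.11% higher in ESC-like cells than in ESC. For this list the median difference was 1.97 in GSC minus ESC and -1.55 in gPS minus GSC.

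Of 6 measured genes for other receptors and the receptor kinases, 4 were higher in GSC than in ESC and 3 lower in gPS than in GSC. The shares over all genes were 13.1% and 10.9%. Jak1, a kinase shared by all interferon receptors, averaged 10.63 in GSC and 8.03 in gPS (-2.60 ± 0.13 SE), Jak2 7.21 and 5.66, and the receptor chain Il10rb 7.01 and 5.22. None of the 6 was called in gPS minus ESC, against 4.49% of all genes, and their median difference there was 0.14. Of 12 sensors and adaptors outside the member list, the DNA sensor Cgas (-2.06 ± 0.15) and the RNA sensor Tlr3 (-1.43 ± 0.12) were lower in gPS than in GSC and Traf6 (1.13 ± 0.15; all SE) was higher. Of 7 brakes on the pathway, Pias1 (-1.23 ± 0.16) and Socs3 (-1.02 ± 0.12) were lower in gPS and the phosphatase Ptpn2 (1.05 ± 0.13; all SE) higher. Over all genes, 10.9% were lower and 9.10% higher in gPS than in GSC. No sensor, adaptor or brake of these lists was called in gPS minus ESC, against 4.49% of all genes.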

How the data were processed

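Each sample was hybridised to 1 Affymetrix array, per the labels' protocols. The authors deposited log2 intensities for every probe set; the submitters' processing notes name RMA without a version, and whether the ESC_like arrays, which have later sample numbers, went through it with the other arrays is not given in the sources used here. The arrays hold 45101 probe sets: 34945 with a single gene symbol, 932 with several, 9160 with none and 64 controls, which were dropped; symbols were updated by gene identifier for 34741. A gene took its brightest probe set, which gave 18193 genes. Group means of all 20 arrays were fitted with limma 3.58.1 in R 4.3.3 (lmFit, eBayes), with Benjamini-Hochberg adjustment over all genes of a comparison; the fit was tested on simulated data. Errors marked SE are limma's, and intervals are at 95%. Promoters were RefSeq's (GRCm38.p6), and 7 members had no entry. All members could be named; from each other list, up to 4 called genes with the largest and 2 uncalled with the smallest differences per comparison. The members and lists were chosen with earlier results of these data known. Alternatives covered normalization, array weights, variance trend, probe sets, thresholds, a replicate block and each array left out.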

Additional observations from a re-analysis of the deposited data

Results flagged for a closer look

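In the gPS group, the only group of more than 3 arrays, replicate 1 read 9.72 for Ifitm1 while the other 4 arrays read 11.53 to 12.23. The gap to the nearest array was 0.72 of the whole range. Of the 37 members tested this way 1 stood apart, and chance alone marks about 1 group in 20.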

How the results depend on the processing

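No member's called difference changed sign in any alternative, and 72 of the 87 calls were kept in every setting but the 4-fold threshold. With a threshold of 1.5-fold the members called were 23 in gPS minus GSC, 7 in gPS minus ESC, 14 in ESC_like minus ESC and 11 in gPS minus ESC_like, against 34.7%, 13.1%, 16.7% and 13.7% of all genes. With 4-fold they were 11 in GSC minus ESC, 0 in gPS minus ESC, 3 in ESC_like minus ESC, 2 in gPS minus ESC_like, 8 in MEF minus ESC, 6 in NSC minus ESC and 9 in MEF minus GSC, against 7.64%, 0.737%, 1.75%, 0.687%, 9.18%, 8.43% and 11.2% of all genes. Without probe sets of shared suffix, which leaves 26 members, 9 were called in MEF minus ESC and 6 in NSC minus ESC. Of all genes, 22.3% and 20.6% were called in that setting, so the NSC count was near its background. Leaving out 1 array at a time gave 17 to 19 in GSC minus ESC, 14 to 17 in gPS minus GSC, 1 to 3 in gPS minus ESC, 5 to 7 in ESC_like minus ESC, 4 to 5 in gPS minus ESC_like, 13 to 15 in MEF minus ESC, 12 to 14 in NSC minus ESC and 15 in MEF minus GSC. With every array kept, the shares of all genes called were 23.3%, 20.0%, 4.49%, 7.21%, 4.85%, 23.4%, 21.4% and 28.4%, in that order. Leaving out gPS replicates 1 and 2 together, chosen after seeing the data, gave 4 in gPS minus ESC. The share of all genes called in that setting is not given here, so that count cannot be set against a background. Replicate numbers did not pair the arrays (same-number correlations of -0.17 to 0.27). With the replicate number as a block, 1 member was called in gPS minus ESC, against 4.23% of all genes. In no other comparison did the block move the count by over 1.5 times. The block lost the calls of Oasl2 in gPS minus ESC (0.96) and of Ifitm1 in gPS minus GSC (0.74) and added those of Stat2 in gPS minus GSC and of Oasl2 and Gbp3 in gPS minus ESC_like. Searched as TTTC, NN, TTTC on the gene's strand alone, the promoter motif occurred in 7 of the 32 member genes and in 1.96% of all genes. The cause of these shifts was not tested beyond what each setting itself changes.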

Other observations

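Among 34 further interferon-induced genes that were not members, 8 were lower and 3 higher in gPS than in GSC. Of all genes, 10.9% were lower and 9.10% higher, so the count of higher genes was near that background. This list too was chosen with earlier results of these data known. Trim21, an antibody receptor inside the cell, averaged 9.70 in GSC and 5.48 in gPS (-4.22 ± 0.13 SE), the GTPase Igtp 8.64 and 5.39, and Parp12 9.58 and 6.67. Pml, the core protein of nuclear bodies, went the other way, with 6.11 in GSC and 9.38 in gPS. Cxcl10, an interferon-induced chemokine, averaged 4.52 in GSC and 4.50 in gPS and was not called.

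Against ESC, 4 of the 34 were higher in gPS and 1 lower, where 2.36% of all genes were higher and 2.13% lower. Of the 34, Parp12 (2.00 ± 0.20), Ly6e (1.90 ± 0.31) and Ccl2 (1.45 ± 0.20) were higher and Phf11d (-1.99 ± 0.18; all SE) lower. In ESC-like cells 8 were higher than in ESC and 1 lower, with the GTPase Irgm1 at 8.62 against 5.22. Of all genes, 5.11% were higher and 2.10% lower there.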
